A study of Mus musculus with 8 samples.

Results

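The laminin chains examined here were 9 genes chosen by name, Lama2, Lama3, Lama4, Lama5, Lamb1, Lamb2, Lamb3, Lamc1 and Lamc3, out of 27179 genes in the count table. All 9 passed the filter on low counts and were among the 15583 genes tested. The cells came from lungs of C57BL/6 mice aged 18 to 22 weeks that carried an Eml4-Alk rearrangement (labelled a translocation), 11 to 12 weeks after tumor induction by an adenovirus delivering Cas9 and guide RNAs to the lung. Every mouse had received 4.5 nmol of the QZ1 probe by vein 2 h before the lungs were taken, so the probe was common to both groups. QZ1 is a quenched Cy5 peptide that becomes fluorescent and tags nearby cells when a protease cuts its linker. From viable CD45- CD11b- lung cells, 4 libraries were made of the QZ1-hi population (labelled QZ+ or QZ1+) and 4 of the QZ1-lo population (labelled QZ- or QZ1-), each from at least 100000 cells. Both populations are mixtures whose purity was not assessed at the sort, and the labels do not say which libraries of the 2 populations share a mouse. The comparison asked which genes went with protease-activated tagging of the cells.

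Laminins are secreted glycoproteins built as a trimer of an alpha, a beta and a gamma chain, which is cross-shaped in many of them. Many laminins polymerise into the sheet that, together with a type IV collagen network, forms a basement membrane. Cells attach to that sheet through integrins and dystroglycan that bind the end of the alpha chain, and nidogens and perlecan link it to collagen IV. Chains differ by tissue: the alpha 3 and beta 3 chains belong to the laminin that anchors epithelia, alpha 4 is typical of vessels and mesenchyme, alpha 2 of muscle and nerve, and alpha 5, beta 1, beta 2 and gamma 1 are widespread. In the lung, basement membranes underlie the airway and alveolar epithelium and the capillaries, and are shared between them where gas is exchanged.

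Libraries held between 18380918 and 26847938 counts. Mitochondrial and ribosomal RNA genes took 43.7% to 65.6% of the counts in QZ1-hi and 34.0% to 53.2% in QZ1-lo. Levels are given as CPM, counts scaled to library size by TMM in edgeR, with factors from 0.660 to 1.35. A level of 3 counts, taken as the floor, lay between 0.0894 and 0.179 CPM and covers counting error only. A positive log2 fold change means higher in QZ1-hi, and each is given with a standard error (SE) and a Benjamini-Hochberg adjusted p from edgeR's quasi-likelihood test over all genes tested, called at an adjusted p under 0.05. By that test 1540 genes were higher and 1280 were lower. Scaling by library size alone gave 882 higher and 2509 lower. The median over all genes was then -0.44 in place of 0.02 on the log2 scale.

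Promoters of 5 of the 9 chains were taken from the RefSeq table for GRCm38.p6 (same assembly as mm10, the build in the submitters' notes). The 250 bases before a transcription start listed there are shown for a pair of chains that rose, Lama2 (chr10:27616943-27617192, minus strand) and Lamb1 (chr12:31265043-31265292, plus strand), and a pair that fell, Lama5 (chr2:180225860-180226109, minus strand) and Lamb3 (chr1:193301744-193301993, plus strand, the first of its listed starts), so that the sequences can be read beside their values. These starts differ from the outer ends of the gene spans given below. The Lamb3 window lies inside its gene span, the Lama2 window almost wholly so, and the Lama5 and Lamb1 windows in part. None of the windows shows only bases upstream of the whole gene. Chains without a promoter here may still have a start listed in RefSeq. Capitals mark GGGCGG on either strand.
Lama2: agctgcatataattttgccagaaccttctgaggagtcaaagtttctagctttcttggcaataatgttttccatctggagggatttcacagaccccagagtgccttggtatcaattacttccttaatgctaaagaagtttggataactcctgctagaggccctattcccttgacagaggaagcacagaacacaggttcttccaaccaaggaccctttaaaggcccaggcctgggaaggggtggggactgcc
Lamb1: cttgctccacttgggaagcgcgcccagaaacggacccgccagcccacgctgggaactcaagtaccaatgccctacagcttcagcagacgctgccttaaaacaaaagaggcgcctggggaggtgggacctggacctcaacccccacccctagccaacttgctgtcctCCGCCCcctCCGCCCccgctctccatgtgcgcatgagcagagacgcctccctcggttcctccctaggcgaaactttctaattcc
Lama5: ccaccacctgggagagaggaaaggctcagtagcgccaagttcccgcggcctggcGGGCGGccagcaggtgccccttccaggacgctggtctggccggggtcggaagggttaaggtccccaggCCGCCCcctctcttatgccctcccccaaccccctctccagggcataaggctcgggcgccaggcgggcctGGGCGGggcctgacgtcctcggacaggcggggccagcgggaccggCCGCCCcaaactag
Lamb3: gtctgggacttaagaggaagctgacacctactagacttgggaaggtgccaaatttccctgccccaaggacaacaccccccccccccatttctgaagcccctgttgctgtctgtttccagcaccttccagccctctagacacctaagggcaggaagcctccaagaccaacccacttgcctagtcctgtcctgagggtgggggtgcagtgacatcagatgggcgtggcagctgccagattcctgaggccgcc
The windows differed in base composition within each pair. GC content was 47.2% for Lama2 and 62.0% for Lamb1, against 72.4% for Lama5 and 58.8% for Lamb3. GGGCGG, the GC box, occurred 4 times in the Lama5 window and 2 times in that of Lamb1, and 32.7% of the 32851 windows of this length in the table held it. The TATA box TATAAA was searched on both strands too, as were the AP-1 site TGANTCA, the ETS core CCGGAA and the E-box CACGTG. None was in any of the 4 windows shown, while all windows held the TATA box in 12.4%, the AP-1 site in 6.75%, the ETS core in 12.0% and the E-box in 6.02%. A match, or its absence, describes only the letters of the window.

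The laminin chains split by type between the populations. Of the 9 chains, 5 were higher in QZ1-hi (Lama2, Lama4, Lamb1, Lamc1 and Lamc3) and 3 were lower (Lama3, Lama5 and Lamb3), while Lamb2 missed the threshold. Among all genes tested, 9.88% were called higher and 8.21% lower, 18.1% in all. For those 8 chains the CPM ranges of the populations, 4 libraries each, lay apart. Ranges lay apart for 22.6% of all genes tested, 11.9% with QZ1-hi above and 10.7% with it below. The median log2 fold change of the 9 chains was 0.67, against 0.02 for all genes tested. The count of chains called higher fell to 3 without QZ1-hi replicate 2 or without QZ1-lo replicate 1, both times through Lamc1 and Lamc3, while 7.88% and 8.03% of all genes were called higher in those fits. In these bulk libraries, fewer cells of a type and less RNA per cell cannot be told apart.

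**Figure D1:**
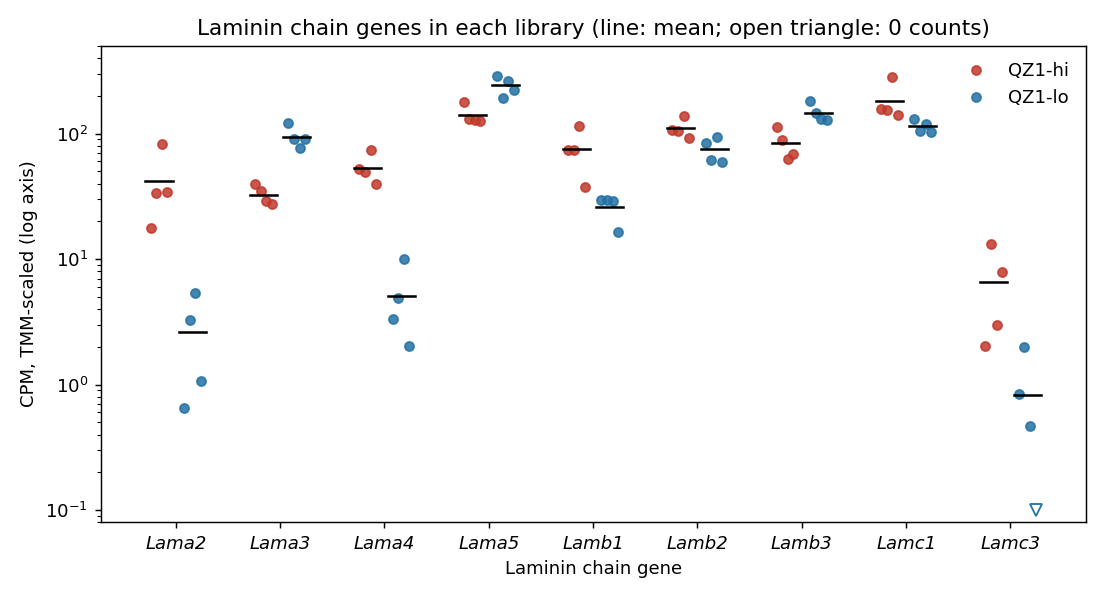
CPM (log axis) of the 9 laminin chain genes in each QZ1-hi and QZ1-lo library, 1 point per library, with the group mean as a line and 0 counts as an open triangle at the foot of the axis. Lama2 and Lama4 sit at 17.7 CPM or more in every QZ1-hi library and at 10.02 CPM or less in every QZ1-lo library, while Lama3, Lama5 and Lamb3 sit the other way.

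Lama2 (Entrez Gene 16773, chr10:26981285-27617191 in GRCm38, as all positions here) encodes the alpha 2 chain, whose loss in people and mice causes a congenital muscular dystrophy. It was at 17.7, 33.8, 83.0 and 34.1 CPM in QZ1-hi replicates 1 to 4 and at 0.656, 3.30, 5.39 and 1.06 CPM in QZ1-lo replicates 1 to 4. The lowest QZ1-hi library was above the highest QZ1-lo library, and QZ1-hi replicate 3 stood highest. In edgeR this was a log2 fold change of 4.02 (SE 0.65) with an adjusted p of 0.00156, a 16.2-fold difference and the widest of the 9 chains. The value fell to 3.44 without QZ1-hi replicate 3 and rose to 4.68 without QZ1-lo replicate 3, and was called either way. Exons of Lama2 overlap Gm48084 on the opposite strand over 3.86% of their bases, and the strand setting of the counting is not stated.

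Lama4 (Entrez Gene 16775, chr10:38965515-39110188), on the same chromosome, encodes the alpha 4 chain of endothelial and mesenchymal basement membranes. Its levels were 52.0, 49.2, 73.9 and 39.7 CPM in QZ1-hi and 3.34, 4.92, 10.02 and 2.05 CPM in QZ1-lo. Here too no QZ1-lo library came near a QZ1-hi library, and the spread within QZ1-hi was narrower than for Lama2. Lama4 was 10.6-fold higher in QZ1-hi, a log2 fold change of 3.40 (SE 0.42) at an adjusted p of 0.000439 by edgeR. Replicate numbers follow accession order, and libraries of the same number are not known to share a mouse. In each population replicate 3 was the highest library for both Lama2 and Lama4. Those libraries also had the highest summed level of the endothelial markers in their populations, 2479 CPM in QZ1-hi and 333 CPM in QZ1-lo, and likewise of the fibroblast (2244 and 243 CPM), pericyte (86.1 and 27.03 CPM) and platelet markers (35.2 and 8.87 CPM). For the fibroblast markers in QZ1-lo, replicate 3 (243.4 CPM) was nearly level with replicate 2 (242.9 CPM).

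The alpha chains of epithelial laminins went down. Lama3 (Entrez Gene 16774, chr18:12333417-12583013) encodes the alpha 3 chain, which pairs with beta 3 under epithelia. It was at 39.6, 34.8, 29.1 and 27.4 CPM in QZ1-hi and at 121, 90.7, 76.5 and 90.4 CPM in QZ1-lo. Each QZ1-lo library held more than the highest QZ1-hi library, and Lama3 was 2.89-fold lower in QZ1-hi, at -1.53 on the log2 scale (SE 0.17) with an adjusted p of 0.000278 by edgeR. This was the smallest p of the 9 chains. Opposite-strand exons of Gm29200 cover 1.83% of its exonic bases.

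Lama5 (Entrez Gene 16776, chr2:180176373-180225904) encodes the alpha 5 chain, the major alpha chain of most adult epithelial basement membranes and also present in vessel walls. It was at 180.3, 131, 128 and 126 CPM in QZ1-hi and at 289.8, 193, 262 and 223 CPM in QZ1-lo. QZ1-hi replicate 1 stood above the other QZ1-hi libraries but below the lowest QZ1-lo library. Lama5 was 1.71-fold lower in QZ1-hi, at -0.77 on the log2 scale (SE 0.16), with an adjusted p of 0.00697 by edgeR. It remained the alpha chain with the most counts in every library of both populations.

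Among the beta chains, Lamb1 (Entrez Gene 16777, chr12:31265146-31329644), a widespread chain, rose. Its levels were 73.9, 74.6, 114 and 37.9 CPM in QZ1-hi and 29.7, 29.3, 29.1 and 16.3 CPM in QZ1-lo. Replicate 4 was lowest in both populations, and the populations did not overlap. Lamb1 was 2.88-fold higher in QZ1-hi, or 1.53 on the log2 scale (SE 0.30), at an adjusted p of 0.00455 by edgeR.

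Lamb3 (Entrez Gene 16780, chr1:193294353-193343878) encodes the beta 3 chain, which is found with alpha 3. It was at 114, 88.9, 63.1 and 69.4 CPM in QZ1-hi and at 182, 147, 131 and 128 CPM in QZ1-lo. The groups stayed apart, with the QZ1-hi library of highest Lamb3, replicate 1, below the lowest QZ1-lo library. By edgeR it was 1.76-fold lower in QZ1-hi, at -0.81 on the log2 scale (SE 0.19, adjusted p = 0.0127).

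Lamb2 (Entrez Gene 16779, chr9:108479847-108490530) encodes the beta 2 chain, known from the kidney filter and the neuromuscular junction, where it takes the place of beta 1. It was at 108, 105, 137 and 91.8 CPM in QZ1-hi and at 84.1, 61.4, 94.4 and 59.3 CPM in QZ1-lo. QZ1-lo replicate 3 lay above QZ1-hi replicate 4, so the populations overlapped. The value of 0.56 on the log2 scale (SE 0.18) had an adjusted p of 0.0503 by edgeR, just outside the threshold. DESeq2 (adjusted p = 0.0297) and limma-voom (adjusted p = 0.0331) called it higher, and over all alternatives its adjusted p ran from 0.0234 to 0.823.

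Lamc1 (Entrez Gene 226519, chr1:153218922-153332786) encodes the gamma 1 chain, the partner in most laminins of epithelia and vessels alike. It had the most counts of the 9 chains in 3 of 4 QZ1-hi libraries. Its levels were 156, 154, 280.4 and 141 CPM in QZ1-hi and 132, 105, 119 and 103 CPM in QZ1-lo. QZ1-hi replicate 3 stood far above the other QZ1-hi libraries, which were close to the highest QZ1-lo library. In edgeR the mean difference was 1.59-fold, or 0.67 on the log2 scale (SE 0.21, adjusted p = 0.0457), and dropped to 0.36 (adjusted p = 0.0947, edgeR) without QZ1-hi replicate 3. The call was lost in 6 of the 8 fits that left out a library, all but those without QZ1-hi replicate 1 or QZ1-hi replicate 4, with an adjusted p of at most 0.117 in them, and also with DESeq2 size factors (adjusted p = 0.0501) and library size alone (0.23, adjusted p = 0.589).

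Lamc3 (Entrez Gene 23928, chr2:31887281-31949083) encodes the gamma 3 chain and was the least abundant of the 9 chains. It was counted 48, 268, 52 and 133 times in QZ1-hi and 28, 49, 13 and 0 times in QZ1-lo, which gave 2.03, 13.2, 3.01 and 7.93 CPM against 0.835, 1.99, 0.470 and 0 CPM. The gap between the populations was narrow, 2.03 against 1.99 CPM. By edgeR the value was 2.98 on the log2 scale (SE 0.89) with an adjusted p of 0.0395. The call was lost with DESeq2 (adjusted p = 0.0560), with limma-voom (adjusted p = 0.0893), with robust shrinkage (adjusted p = 0.0683), and without QZ1-hi replicate 2, QZ1-hi replicate 4, QZ1-lo replicate 1 or QZ1-lo replicate 3. It was 2.36 on the log2 scale (adjusted p = 0.141, edgeR) without QZ1-hi replicate 2 and 3.85 (adjusted p = 0.0244, edgeR) without QZ1-lo replicate 2. Gm13441 lies opposite 6.27% of its exonic bases. The mesothelial markers (Msln, Upk3b, Wt1 and Lrrn4) summed to 56.4, 268, 38.4 and 66.1 CPM in QZ1-hi, where replicates 2 and 4 were highest as for Lamc3, and to 15.4, 36.5, 9.70 and 5.93 CPM in QZ1-lo, in the same order as Lamc3. The part of mesothelial cells in the Lamc3 difference was not tested.

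A further chain outside the 9, Lama1, whose alpha 1 chain is best known from embryonic basement membranes, was at 8.10 to 19.8 CPM in QZ1-hi and 0.327 to 3.55 CPM in QZ1-lo (3.06 on the log2 scale, SE 0.56, adjusted p = 0.0031 by edgeR). Its QZ1-hi libraries all lay above its QZ1-lo libraries.

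Levels of different genes were compared per kilobase of exon (CPM per kb) over the 9 chains and Lama1. In QZ1-hi, Lamc1 led at 22.1 ± 7.90 CPM per kb (SD, n = 4), followed by Lamb2, Lamb3 and Lama5, and each chain overlapped its neighbour in this order. In QZ1-lo, Lamb3 was first of these at 22.3 ± 3.77 CPM per kb (SD, n = 4) and overlapped Lama5, at 21.3 ± 3.73 CPM per kb (SD, n = 4). Per kb of exon, every QZ1-lo library held more Lama5 than the highest Lamc1 level there. This order depended on the length used. Per kb of coding sequence, QZ1-lo Lamc1 was at 23.8 and Lama5 at 21.7 CPM per kb with overlap, while Lamb3, at 36.6 to 52.1 CPM per kb, lay above both. In QZ1-hi, Lamc1 still led by coding length, at 37.9 CPM per kb, but Lamb3 (23.9) came before Lamb2 (20.5) and Lamb1 (13.7) before Lama5 (12.7). At the foot of the QZ1-lo order per kb of exon, Lama4, Lama1, Lama2 and Lamc3 were all at 0.421 CPM per kb or less on average and overlapped each with the next.

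Within the alpha and the beta class, shares of the summed level per kb do not depend on how a library is scaled. Lama5 made up 52.3% ± 7.90 (SD, n = 4) of the alpha chain level in QZ1-hi, but 68.8% ± 3.18 (SD, n = 4) in QZ1-lo. The share of Lama4 was 18.5% ± 2.86 against 1.38% ± 0.931, and that of Lama2 10.7% ± 6.02 against 0.538% ± 0.444 (SD, n = 4 each). Lama3, in contrast, took 12.9% ± 2.07 in QZ1-hi and 28.7% ± 4.29 in QZ1-lo (SD, n = 4 each). Alpha chains in QZ1-lo were thus nearly all alpha 5 and alpha 3, whereas in QZ1-hi the alpha 4 and alpha 2 chains held a visible part. For the beta chains, Lamb3 gave 33.3% ± 8.04 in QZ1-hi and 59.98% ± 5.47 in QZ1-lo, and Lamb2 gave 47.5% ± 4.85 and 33.0% ± 5.21 (SD, n = 4 each). For every alpha and beta chain the shares of the populations did not overlap. With coding length in place of exonic length, Lamb3 passed Lamb2 in QZ1-hi (41.5% against 35.5%) and took 69.3% of the beta chain level in QZ1-lo. Lama4 then took 30.7% of the alpha chain level in QZ1-hi and 2.88% in QZ1-lo, because its exonic length counts long stretches outside the coding sequence (12068 against 5448 bases).

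**Figure D2:**
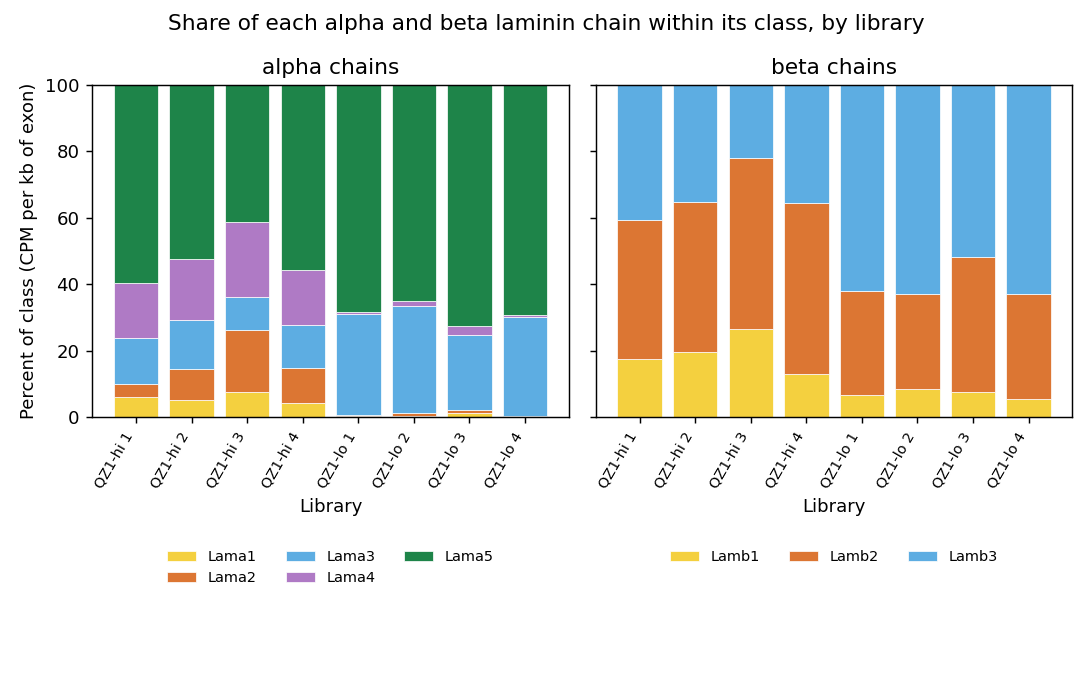
Stacked bars of the percent each chain contributes to the summed CPM per kb of exon of its class (alpha, beta) in each of the 8 libraries. Lama4 and Lama2 take a clear part of the QZ1-hi bars and are thin slices of the QZ1-lo bars, and the Lamb3 share is larger in every QZ1-lo bar than in any QZ1-hi bar.

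Ratios of chains within a library gave the same picture without any scaling. The log2 ratio of Lama4 to Lama5 counts was -1.79, -1.42, -0.80 and -1.66 in QZ1-hi and -6.44, -5.29, -4.71 and -6.77 in QZ1-lo. The mean ratio thus differed by 4.39 on the log2 scale, with every QZ1-hi library above every QZ1-lo library. The log2 ratio of Lamb3 to Lamb1 counts was between -0.86 and 0.87 in QZ1-hi and between 2.17 and 2.97 in QZ1-lo. Lama3 also differed from Lama5, which fell less: their log2 ratio was between -2.20 and -1.92 in QZ1-hi and between -1.77 and -1.09 in QZ1-lo. The log2 ratio of Lamb2 to Lamb1 overlapped, at 0.26 to 1.28 in QZ1-hi and 1.07 to 1.86 in QZ1-lo.

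Of 8 receptor genes for laminin, 0 were called higher and 2 were called lower by edgeR, against 9.88% and 8.21% of all genes tested, with a median log2 fold change of -0.03. Itga3, the integrin alpha 3 subunit that binds laminins with alpha 3 or alpha 5 chains, was at 76.0 to 114 CPM in QZ1-hi and 199 to 220 CPM in QZ1-lo (log2 fold change -1.04, SE 0.14, adjusted p = 0.000586, edgeR). Itgb4, the integrin beta 4 subunit of hemidesmosomes, was at 11.1 to 18.7 CPM in QZ1-hi and 29.5 to 44.7 CPM in QZ1-lo (log2 fold change -1.22, SE 0.19, adjusted p = 0.00134, edgeR). Its partner Itga6, which also pairs with integrin beta 1 in vessels, was at 0.56 on the log2 scale (SE 0.22) with an adjusted p of 0.11 by edgeR. The shared beta subunit Itgb1 (0.14), dystroglycan Dag1 (0.00), the Lutheran antigen Bcam (-0.07), Itga7 (-0.08) and Cd151 (0.11) had log2 fold changes with an SE of 0.11 to 0.19. At an unadjusted p under 0.05, 1 receptor (Itga6) was higher and 2 were lower, and DESeq2 and limma-voom each called 0 higher and 2 lower.

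Other components of the basement membrane were mostly higher in QZ1-hi. Of 19 genes, 10 were called higher and 2 lower by edgeR, where 9.88% and 8.21% of all genes were, with a median log2 fold change of 0.76. Nid1, the nidogen that links the gamma 1 chain to collagen IV, was at 100.3 to 282 CPM in QZ1-hi and 4.42 to 22.5 CPM in QZ1-lo (log2 fold change 3.65, SE 0.53, adjusted p = 0.000878, edgeR). Nid2 (2.67), the collagen IV peroxidase Pxdn (2.65), Fras1 (2.58), Col15a1 (1.62) and Col18a1 (1.55) followed, as did Hspg2, which encodes perlecan (1.14), and the collagen-binding protein gene Sparc (0.92). The collagen IV genes were called in both directions. Col4a1 and Col4a2, which form the common collagen IV, were higher by 0.92 (SE 0.25) and 0.76 (SE 0.22) on the log2 scale, and Col4a3 and Col4a4, which form a network with alpha 5 collagen IV in alveolar and kidney basement membranes, were lower, at -0.76 (SE 0.23) and -0.90 (SE 0.21). The remaining genes, Agrn (-0.41), Col4a5 (-0.55), Col4a6 (0.16), Ntn4 (0.62), Tinagl1 (-0.27), Npnt (-0.42) and Frem2 (-1.44), did not pass the threshold. At an unadjusted p under 0.05 in edgeR, 10 genes of this list were higher and 6 lower. DESeq2 and limma-voom each called 10 higher and 2 lower. Opposite-strand exons of other genes cover 8.45% of the exonic bases of Nid2, 5.65% of those of Col4a3 and, among the receptors, 7.66% of those of Itgb4. With library size alone, 6 genes of this list were called higher and 6 lower, against 5.66% and 16.1% of all genes.

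**Figure D3:**
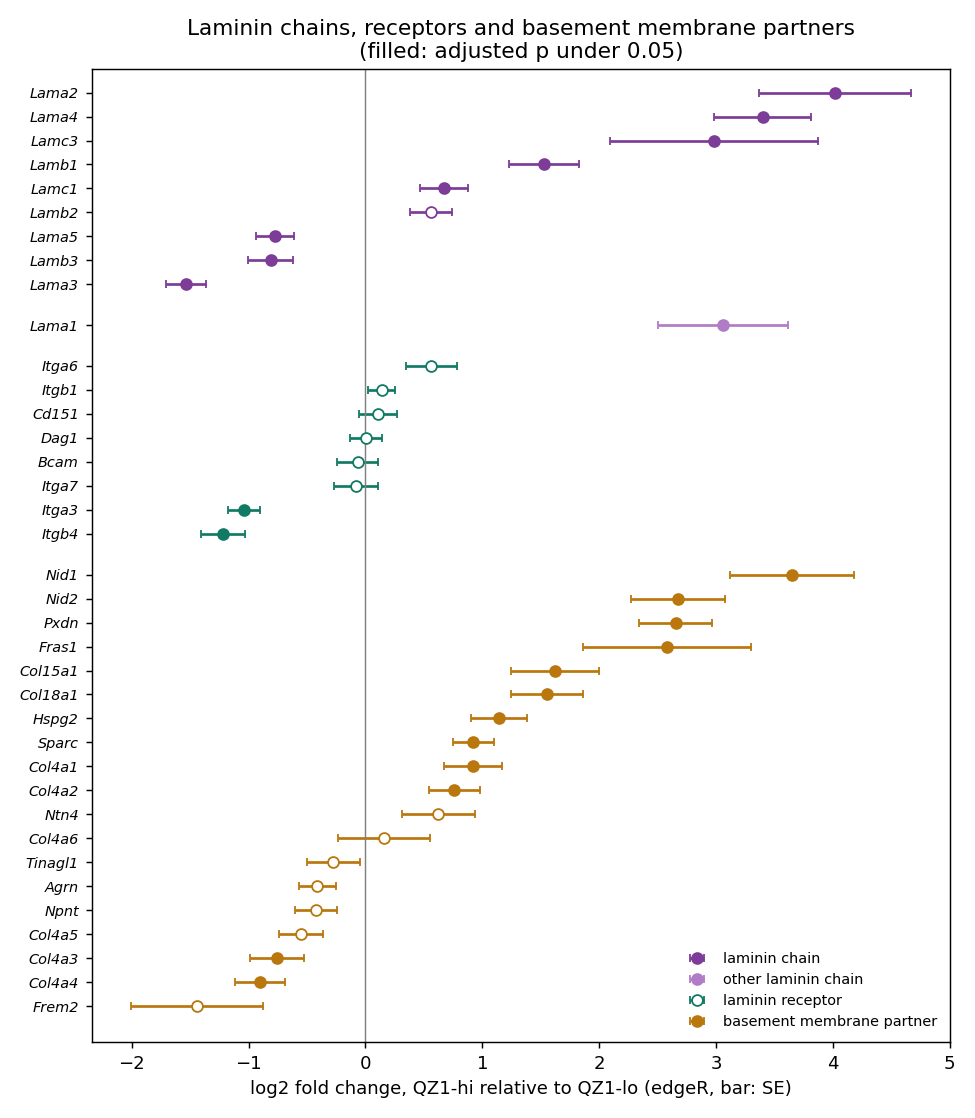
Log2 fold change of QZ1-hi relative to QZ1-lo with its SE for the 9 laminin chains, Lama1, 8 laminin receptors and 19 basement membrane partners, filled where the adjusted p was under 0.05. Chains run from 4.02 (Lama2) to -1.53 (Lama3), while 6 of 8 receptors are open points between -0.08 and 0.56.

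Genes that act on either side of the laminin sheet were read from the same fit. Of 8 hemidesmosome and anchoring genes tested, Dst, which encodes dystonin, was higher (log2 fold change 1.05, SE 0.15, adjusted p = 0.000799, edgeR) and Itgb4 was lower, next to 9.88% and 8.21% of all genes. Plec, at 0.03 on the log2 scale (SE 0.12), Col7a1, at -1.09 (SE 0.37), and Col17a1, at -0.94 (SE 0.85), did not pass in edgeR, and DESeq2 and limma-voom each called 1 gene higher and 2 lower in this list. In the dystrophin complex, which ties dystroglycan to the cytoskeleton, 3 of 7 genes tested were higher, where 9.88% of all genes were, and 1 to 4 were higher over the alternatives, with 1 under library size alone. These were Utrn (0.42, SE 0.13), Sgce (1.25, SE 0.27) and Sgcd, which was counted 15 to 47 times in QZ1-hi libraries and 0 to 3 times in QZ1-lo libraries. Sgcd thus passed the filter on low counts through its QZ1-hi libraries alone. With no filter, 2 genes of this list were called higher.

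Marker genes of cell types moved with the chains. For scale, edgeR called 9.88% of all genes tested higher and 8.21% lower. All 10 endothelial markers were called higher, and their summed level was 1106 to 2479 CPM in QZ1-hi and 68.3 to 333 CPM in QZ1-lo. All 8 fibroblast markers were also higher, with 1086 to 2244 CPM against 32.2 to 243 CPM, as were 3 of 8 pericyte markers (57.3 to 86.1 CPM against 10.4 to 27.03 CPM). Smooth muscle markers (2 of 5 higher, 1 lower) summed to 25.0 to 39.6 CPM against 10.3 to 21.6 CPM, and platelet markers (3 of 4 higher) to 17.2 to 35.2 CPM against 3.79 to 8.87 CPM. The mesothelial markers, given above beside Lamc3, were called higher in 4 of 4. These lists lie on the side of Lama2, Lama4 and Lamb1. On the side of Lama3, Lama5 and Lamb3 lie the alveolar type 1 markers (4 of 6 lower, 1 higher), at 560.2 to 819.5 CPM in QZ1-hi and 986 to 1214 CPM in QZ1-lo. Club cell markers (3 of 3 lower, 311 to 973 CPM against 1389 to 3998 CPM) and ciliated cell markers (5 of 5 lower, 59.3 to 151 CPM against 232 to 497 CPM) lie there too. Not every epithelial list did: alveolar type 2 markers (2 of 7 higher, 0 lower) were at 6241 to 11472 CPM in QZ1-hi and 4593 to 7236 CPM in QZ1-lo. Basal cell markers were low in both populations, 0.636 to 6.12 CPM against 1.13 to 5.21 CPM, and Krt5 was counted only in QZ1-lo replicate 1, at 6 counts. The leukocyte (190.3 to 432 CPM against 209 to 321 CPM), red cell (53.6 to 396 CPM against 112 to 1229 CPM) and Schwann cell lists (2.32 to 3.16 CPM against 2.07 to 3.19 CPM) overlapped, with 0 genes called by edgeR. At an unadjusted p under 0.05 these lists held 0, 2 and 0 genes. DESeq2 called 0, 0 and 1, and limma-voom 0 in each, against 18.4% and 18.6% of all genes in either direction. The mix of cell types in each population is confounded with QZ1 signal in this design, and its part in the chain differences was not tested.

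**Figure D4:**
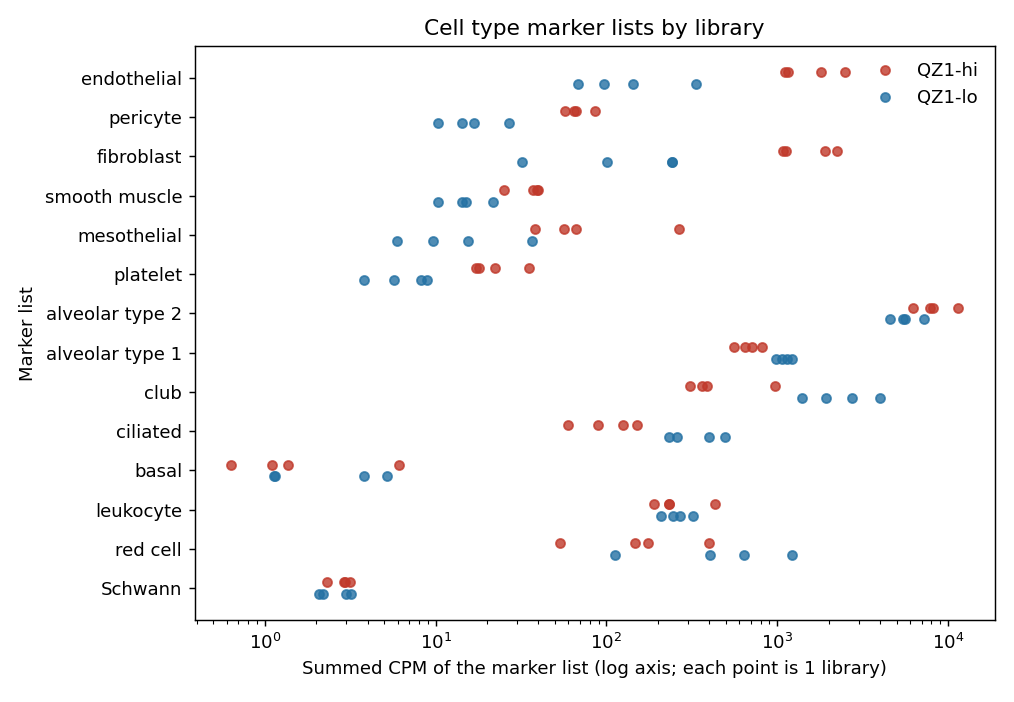
Summed CPM (log axis) of each marker list in each library, 1 point per library. Endothelial and fibroblast lists reach at least 1086 CPM in each QZ1-hi library and at most 333 CPM in each QZ1-lo library, the alveolar type 1, club and ciliated lists are lower in QZ1-hi, and the alveolar type 2 list overlaps.

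For each chain the genes with the most similar profile were found as those with the smallest root mean square (RMS) difference in centred log2 CPM over the 8 libraries. For Lama4 they were Ptprb (0.168), an endothelial phosphatase that is also in the endothelial list, Clec1a (0.174) and Stmn2 (0.195). Lama2 was nearest to Htra3 (0.23), C7 (0.321) and Sfrp4 (0.382), secreted proteins that had log2 fold changes of 4.05, 4.04 and 3.47. Lama5 lay near Cadm1 (0.0933), Irx1 (0.107) and Ager (0.118), which is also in the alveolar type 1 list, and Lama3 near Gprc5a (0.15). For Lamc1 the nearest gene was Timp3 (0.117), an inhibitor of metalloproteases held in the matrix. The nearest genes of Lamb1, Lamb2 and Lamb3 were Fmnl3 (0.218), Rbfox2 (0.104) and Tmem254b (0.0818), none of them in a marker list. Lamc3 had no close neighbour, and the nearest was Wt1 (0.503), a transcription factor that is also in the mesothelial list. These distances describe the profiles over the same 8 libraries and say nothing of shared control.

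The fold changes were recomputed under 16 alternatives. Lama2, Lama3, Lama4, Lama5, Lamb1 and Lamb3 were called in the same direction in all 16, and no chain changed sign. The calls of Lamb2, Lamc1 and Lamc3 depended on the setting, as given above. Scaling by library size alone lowered each chain's value, but relative to the median of all genes Lama3 was at -1.54 and Lama4 at 3.40, close to -1.56 and 3.37 with TMM.

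**Figure D5:**
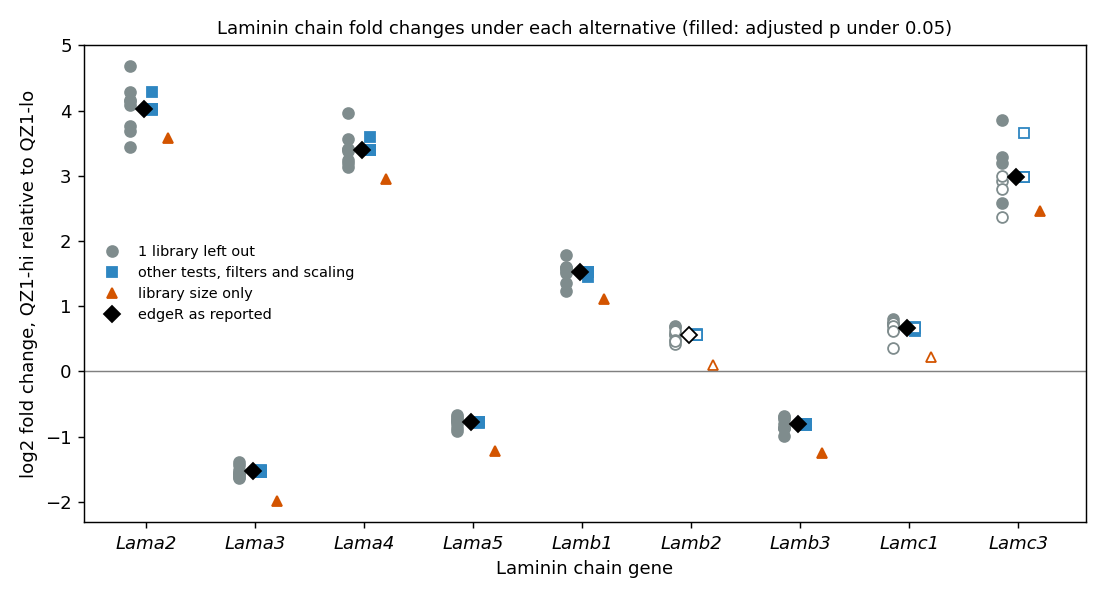
Log2 fold change of each chain as reported (diamond), with 1 library left out (circles), with other tests, filters and scaling (squares) and with library size alone (triangle), filled where the adjusted p was under 0.05. Lama2 stays between 3.44 and 4.68 and Lama3 between -1.98 and -1.39, while Lamb2, Lamc1 and Lamc3 mix filled and open points.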

How the data were processed

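Bulk RNA-seq of 4 QZ1-hi and 4 QZ1-lo libraries was used, grouped by the condition in the sample labels. The authors prepared stranded total RNA libraries, sequenced these on a NextSeq500 and used Rsubread to count reads per gene, and the deposited values are these raw counts, and they tested them with DESeq2. The build is mm10 per the labels, and the aligner, the annotation and the strand setting are not given in the sources used here. Of 27179 Entrez Gene identifiers, 25292 were given a symbol from RefSeq (GRCm38.p6) or GENCODE M21. The counts were tested in R 4.3.3 with edgeR 4.0.16 (TMM, filterByExpr with a minimum count of 10 and a minimum total of 15, quasi-likelihood test, Benjamini-Hochberg adjustment over 15583 genes). Lengths are merged exons or the longest coding sequence in GENCODE M21. Dividing a log2 fold change by its SE gives the square root of the F statistic. At most 5.49% of a chain's stretches of 50 bases occurred in transcripts of another gene. The edgeR procedure was also run on simulated counts with changes balanced in direction and with independent libraries. That check did not cover a shift in composition or libraries that share a mouse.

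Alternatives were DESeq2 1.42.0, limma 3.58.1 (voom), DESeq2 size factors, library size alone, no filter, at least 10 counts in every library, removal of 48 mitochondrial and ribosomal RNA genes, robust shrinkage and each library left out. Members, gene lists and tests were chosen with earlier results of these data known. The genes named were the 9 members, those of the lists (laminin receptors, basement membrane partners, anchoring, dystrophin complex, cell type markers) and the 3 nearest genes of each chain. Some items of the lists are not reported here. The 4 libraries of each population were treated as biological replicates, although no label ties a library to a mouse.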

Additional observations from a re-analysis of the deposited data

Results flagged for a closer look

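Within each population of 4 libraries, the highest or lowest library was tested by the size of its gap to the nearest other, as a share of the group's range (Dixon's test at 95%). Of 18 groups, 3 held such a library, and chance gives about 1 in 20. QZ1-hi replicate 1 was at 180.3 CPM for Lama5, against 126 to 131 CPM in the other QZ1-hi libraries. QZ1-lo replicate 4 was at 16.3 CPM for Lamb1, where its fellow libraries lay between 29.1 and 29.7 CPM. QZ1-hi replicate 3 was at 280.4 CPM for Lamc1, against 141 to 156 CPM in the other QZ1-hi libraries. Without these libraries the log2 fold change was -0.91 for Lama5, 1.36 for Lamb1 and 0.36 for Lamc1, of which the last was no longer called.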

How the results depend on the processing

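Of 143 values of the 9 chains under an alternative, 120 kept their direction and their side of the threshold, 15 lost the call (8 for Lamc1 and 7 for Lamc3) and 8 gained one, all for Lamb2. The number of chains called higher was 3 to 5 with a library left out and 4 to 6 otherwise, and the number called lower was 3 throughout. Over all genes, library size alone gave 882 higher and 2509 lower against 1540 and 1280, and for the total called every alternative stayed within 1.5 times of 2820, from 2187 to 2543 with a library left out and from 2504 to 3450 otherwise. Lamc3 was not tested with at least 10 counts in every library, since QZ1-lo replicate 4 had 0. Of the alpha and beta chain shares under an alternative, 72 moved by less than the SD between libraries and 8 by more, all 8 with coding length. Leaving out 1 of 4 libraries cannot move a mean by a whole SD, so only coding length could move a share. It moved the shares of Lama4, Lamb2 and Lamb3 in both populations and those of Lama3 and Lama5 in QZ1-hi. No paired analysis was possible because no label ties libraries to a mouse and replicate numbers follow accession order. Lamc3 was the 1 chain of the 9 with a library under the floor of 3 counts.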
